A study of Homo sapiens with 4 samples.

Results

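The 8 genes described here encode the subunits of AMP-activated protein kinase (AMPK) and 2 of the serum- and glucocorticoid-regulated kinases (SGK). They are PRKAA1 (ENSG00000132356) and PRKAA2 (ENSG00000162409) for the catalytic alpha subunits, PRKAB1 (ENSG00000111725) and PRKAB2 (ENSG00000131791) for the beta subunits, PRKAG1 (ENSG00000181929) and PRKAG2 (ENSG00000106617) for the gamma subunits, SGK1 (ENSG00000118515) and SGK3 (ENSG00000104205). They were taken by Ensembl gene ID from a table of read counts that lists 57820 gene IDs. All 8 were among the 16426 genes kept by a filter on low counts, and each had at least 88 counts in every library. SGK1, PRKAA1 and PRKAA2 were picked because they are higher in RB1 KO cells, so their differences are given as a description with no test. The other 5 members entered by family alone.

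RNA was measured in confluent IMR-90 cells, a line of human fetal lung fibroblasts grown in high-glucose medium with fetal bovine serum. RB1 KO cells gave 2 of the 4 libraries, and wild-type (WT) cells gave the others. The RB1 KO cells were a pool of puromycin-resistant cells that had received a lentivirus with Cas9 and a guide RNA aimed at the translational start of RB1, the retinoblastoma tumour suppressor. No transduced and selected control is described for the WT cells, so loss of RB1 cannot be told apart from transduction, Cas9 and selection. Whether the 2 libraries of a genotype were separate cultures is not stated. The p-values therefore speak only of how these libraries vary, and that variation may be technical.

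AMPK is a kinase of 3 subunits that senses the energy state of the cell: alpha carries the kinase domain, beta holds the complex together, and gamma binds AMP, ADP and ATP. When ATP runs low, phosphorylation of alpha by the kinase LKB1 switches the complex on, and it then slows lipid and protein synthesis and favours catabolism and autophagy. The SGK kinases are relatives of AKT that are activated by mTORC2 and PDK1 downstream of PI3K, and SGK1 is known for the fast induction of its mRNA by serum, glucocorticoids and osmotic stress.

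The libraries held between 30873239 and 34247292 counts in genes. RB1 itself had 85.3 and 79.0 CPM (counts of a gene per 1000000 counts in genes, scaled with TMM factors) in RB1 KO cells, against 76.5 and 75.2 CPM in WT cells. Its log2 fold change of 0.12 ± 0.07 (SE) did not pass the edgeR quasi-likelihood test with Benjamini-Hochberg adjustment over all genes (adjusted p = 0.507). Small changes at a start codon need not lower a transcript, so this level checks no label. Per the study's methods, the disruption was checked on protein, by Western blot with an antibody to RB1. All 10 fibroblast markers were at 1 CPM or more, while the summed level of 10 epithelial markers was 1.10 and 1.202 CPM in RB1 KO cells and 1.77 and 1.603 CPM in WT cells, and that of 8 immune markers stayed at or below 0.691 CPM. In all 4 libraries 4 of the 10 epithelial and 3 of the 8 immune markers were at 0. Among all genes tested, 476 (2.90%) were called at an adjusted p under 0.1, 327 of them (1.99%) higher and 149 (0.907%) lower in RB1 KO cells. Leaving out 1 library gave between 278 calls higher (without WT replicate 1) and 708 (without RB1 KO replicate 2), and between 110 and 636 calls lower without the same 2 libraries.

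The regions before the starts of the 3 picked genes are shown, and the 3 stand together only by the rule that picked them. The sequences are those of the RefSeq promoter table (GRCh38.p14), placed by exact match in GRCh37, and only the stretch that overlaps no annotated exon is printed. Capitals mark GC boxes (GGGCGG on either strand). PRKAA2 lies on the plus strand of chr1:57110987-57181008 and its stretch is chr1:57110737-57110986. SGK1 lies on the minus strand of chr6:134490386-134639250, has 3 RefSeq starts, and is shown by the one that follows chr6:134496007-134496254, the only one of the 3 with a GC box. PRKAA1 lies on the minus strand of chr5:40759491-40798476 and its stretch is chr5:40798477-40798529.
PRKAA2: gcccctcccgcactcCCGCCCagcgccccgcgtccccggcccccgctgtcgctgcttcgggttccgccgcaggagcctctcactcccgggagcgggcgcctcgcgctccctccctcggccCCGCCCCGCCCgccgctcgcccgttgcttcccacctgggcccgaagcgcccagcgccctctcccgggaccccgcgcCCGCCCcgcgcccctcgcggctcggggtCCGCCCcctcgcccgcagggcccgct
SGK1: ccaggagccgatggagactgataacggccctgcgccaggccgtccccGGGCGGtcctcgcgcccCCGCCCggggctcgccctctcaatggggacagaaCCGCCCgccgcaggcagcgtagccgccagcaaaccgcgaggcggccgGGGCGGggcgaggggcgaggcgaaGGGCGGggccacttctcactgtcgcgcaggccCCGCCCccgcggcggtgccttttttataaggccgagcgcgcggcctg
PRKAA1: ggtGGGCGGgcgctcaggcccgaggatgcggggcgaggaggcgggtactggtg

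The whole 250-base windows of PRKAA2 and PRKAA1 were GC-rich, at 83.2% and 80.8%, and the printed start of SGK1 had 76.0%, whereas the other starts of SGK1 had 33.6% and 41.6%. The median over all promoter windows of this length was 58.0%. PRKAA2 had 5 GC boxes, PRKAA1 had 8 and the printed SGK1 window had 6. That SGK1 window was chosen for its GC boxes and the other SGK1 windows held none, so no likeness of the 3 genes is read from these counts. SGK3 was left out of the search. Of 13 windows of the other 7 members, 7 held a GC box, against 42.6% of 35116 windows of all genes. A CCAAT box (CCAAT) was in 2 of the 13, against 32.0%. None of the 13 windows held an E2F motif, the DNA word of the factors that RB1 binds (TTTCCCGC, TTTCGCGC, TTTGCCGC or TTTGGCGC, found in 2.79% of all windows). The same held for the cyclic AMP element (TGACGTCA, 1.65%), for the palindromic glucocorticoid element (0.328%) and for a FOXO motif (TTGTTTAC, 0.846%). With shares this low over all windows, 13 windows are too few to read anything from a lack of matches. All motifs were searched on both strands, and matches of different motifs could overlap. Gene counts cannot tell which start of SGK1 was in use.

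SGK1, a kinase that phosphorylates the ubiquitin ligase NEDD4L, the FOXO factors and NDRG1, showed the widest difference of the 8 genes. It had 7036 and 6208 counts in RB1 KO cells, against 3526 and 4078 counts in WT cells, which is 214 and 186.5 CPM in RB1 KO cells, against 106 and 128 CPM in WT cells. Both RB1 KO libraries lay above both WT libraries, and the gap between the nearest libraries was 58.3 CPM. The means were 200.3 ± 19.6 CPM in RB1 KO cells and 117 ± 15.7 CPM in WT cells (SD, n = 2 each), 1.71 times as high in RB1 KO cells. The log2 fold change was 0.78 ± 0.11 (SE), at rank 307 from the top among all genes tested. In bulk RNA, a change in the share of cells that make a transcript and a change in the amount per cell cannot be told apart.

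PRKAA1 encodes alpha1, the catalytic subunit found in most tissues. It had 171 and 162 CPM in RB1 KO cells, against 133 CPM in each WT library. The groups did not overlap, and the WT libraries lay closer together than those of RB1 KO cells, at means of 166 ± 6.34 CPM in RB1 KO cells and 133 ± 0.213 CPM in WT cells (SD, n = 2 each). The log2 fold change was 0.32 ± 0.07 (SE), or 1.25 times.

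PRKAA2 encodes alpha2, the catalytic subunit best known from skeletal muscle, heart and liver. It had 913 and 789 counts in RB1 KO cells, against 558 and 608 counts in WT cells, or 27.8 and 23.7 CPM in RB1 KO cells, against 16.8 and 19.1 CPM in WT cells. All values of RB1 KO cells were above those of WT cells, with 4.595 CPM between the nearest libraries. The means of 25.7 ± 2.89 CPM in RB1 KO cells and 17.9 ± 1.66 CPM in WT cells (SD, n = 2 each) gave a log2 fold change of 0.52 ± 0.12 (SE), or 1.44 times. For SGK1 and PRKAA2 alike, RB1 KO replicate 1 was the highest library and WT replicate 1 the lowest.

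**Figure D1:**
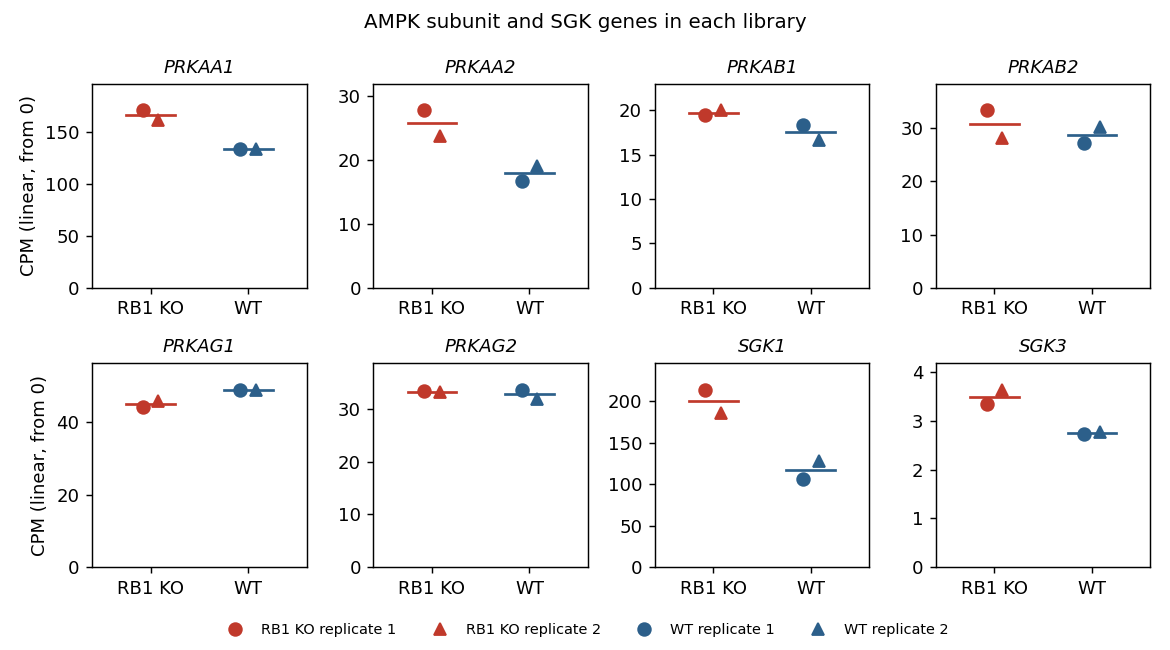
Level of each of the 8 genes in each library in CPM (linear axis from 0), with RB1 KO libraries in red and WT libraries in blue, circles for replicate 1, triangles for replicate 2 and a line at the mean of 2 libraries. SGK1, PRKAA1, PRKAA2, PRKAB1 and SGK3 are higher in both RB1 KO libraries than in either WT library, PRKAG1 is lower in both, and the ranges of PRKAB2 and PRKAG2 overlap.

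The beta subunits, which tether alpha to gamma and bind glycogen, did not pass the test. PRKAB1 (beta1, chr12:120105669-120119429 in GRCh37) had 19.5 and 20.01 CPM in RB1 KO cells, against 18.4 and 16.7 CPM in WT cells. These ranges did not overlap, but the log2 fold change of 0.17 ± 0.10 (SE) had a 95% interval from -0.06 to 0.40, and the adjusted p in edgeR was 0.465. PRKAB2 (beta2, chr1:146626685-146644129) had 33.4 and 28.1 CPM in RB1 KO cells, against 27.2 and 30.3 CPM in WT cells. Its ranges overlapped, its log2 fold change was 0.10 ± 0.11 (SE) with a 95% interval from -0.15 to 0.35, and its adjusted p in edgeR was 0.732. Without RB1 KO replicate 1 the sign turned, to a log2 fold change of -0.03.

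The gamma subunits, which carry the nucleotide-binding sites, did not pass the test either. PRKAG1 (gamma1, chr12:49396057-49412590) was the only member below 0. It had 44.3 and 45.8 CPM in RB1 KO cells, against 48.8 and 49.0 CPM in WT cells, and the ranges did not overlap. The log2 fold change was -0.12 ± 0.08 (SE) with a 95% interval from -0.29 to 0.06, and the adjusted p in edgeR was 0.514. PRKAG2 (gamma2, chr7:151253210-151574299) had 33.5 and 33.2 CPM in RB1 KO cells, against 33.7 and 32.0 CPM in WT cells. Its log2 fold change of 0.02 ± 0.08 (SE; 95% interval from -0.17 to 0.21; adjusted p = 0.935 in edgeR) was -0.04 with library totals alone and -0.02 without WT replicate 2. Over PRKAB1, PRKAB2, PRKAG1 and PRKAG2 these intervals reach from -0.29 to 0.40 on the log2 scale. For each of these genes, differences inside its own interval were not resolved with 2 libraries per genotype.

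SGK3 (chr8:67624969-67774257), the family member whose PX domain brings it to endosomes, was the least abundant member. It had 110 and 121 counts in RB1 KO cells, against 91 and 88 counts in WT cells, or 3.35 and 3.64 CPM in RB1 KO cells, against 2.73 and 2.77 CPM in WT cells. The ranges did not overlap, and the log2 fold change of 0.34 ± 0.19 (SE) had a 95% interval from -0.08 to 0.77 (adjusted p = 0.432 in edgeR). That fold change is of the size of that of PRKAA1, with an SE of 0.19 for SGK3, against 0.07 for PRKAA1. The annotation places a read-through gene, C8orf44-SGK3, over SGK3 on the same strand. That annotation is later than the one used for counting, the count table has no line under the ID of the read-through gene, and an effect on the counts of SGK3 was not tested.

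Of the 8 members, 3 were called higher, against 2.90% of all genes called in either direction, and these are the 3 that were picked for it, so nothing is read from the count. Without RB1 KO replicate 1 or without WT replicate 1, neither PRKAA1 nor PRKAA2 stayed under the threshold, nor did PRKAA1 without WT replicate 2. Among the 5 members that were not picked, the ranges of the genotypes did not overlap for PRKAB1 and SGK3 (2 higher in RB1 KO cells) and for PRKAG1 (1 lower), and they overlapped for the other 2. Over all genes 46.8% had ranges that did not overlap, 22.5% higher and 24.3% lower. The log2 fold change was positive for 4 of these 5 members, and the median over all genes tested was -0.01, with a median size of 0.14 whatever the sign.

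The remaining genes of both families were at or near 0. PRKAG3, which encodes gamma3 of skeletal muscle, had 0 counts in all 4 libraries, which allows a level of up to 3 counts, or between 0.0901 and 0.0943 CPM (counting error only). SGK2 had 5 and 8 counts in RB1 KO cells, against 10 and 4 counts in WT cells, and was not tested.

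Levels of different genes can be compared only per length, so counts were divided by the length of the merged exons and scaled to sum to 1000000 in each library (TPM). PRKAA1 was the most abundant member by this length, at 97.2 ± 7.05 TPM in RB1 KO cells and 76.9 ± 3.20 TPM in WT cells (SD, n = 2 each, here and for the next values). It stood at percentile 91.3 of 15613 protein-coding genes with at least 1 count. SGK1 followed, at 77.2 ± 10.2 TPM in RB1 KO cells and 44.6 ± 7.89 TPM in WT cells, and stood at percentile 86.7. PRKAG1 came next at 41.4 ± 0.417 TPM in RB1 KO cells and 44.4 ± 2.05 TPM in WT cells. In WT cells PRKAG1 and SGK1 lay within their spread (42.9 and 45.8 TPM for PRKAG1, 39.0 and 50.2 TPM for SGK1), whereas in RB1 KO cells SGK1 was above PRKAG1 in both libraries.

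The genes lower in that order were apart from these. PRKAB2 averaged 21.6 ± 3.38 TPM in RB1 KO cells and 19.95 ± 2.35 TPM in WT cells, above PRKAB1 with 12.5 ± 0.182 TPM in RB1 KO cells and 10.96 ± 0.292 TPM in WT cells. PRKAA2 had 10.6 ± 1.55 TPM in RB1 KO cells and 7.27 ± 0.984 TPM in WT cells. In the WT libraries PRKAA2 (6.57 and 7.96 TPM) was not apart from PRKAG2 (7.45 and 7.52 TPM), and in the RB1 KO libraries PRKAA2 (11.7 and 9.47 TPM) was above PRKAG2 (7.92 and 7.48 TPM) in both. SGK3 was lowest, at 2.35 ± 0.0555 TPM in RB1 KO cells and 1.83 ± 0.0939 TPM in WT cells, percentile 29.8. The order depends on the length used: with that of the longest transcript, SGK1 in RB1 KO cells (110.1 TPM) was above PRKAA1 (95.0 TPM), and PRKAG1 in WT cells (86.6 TPM) was above PRKAA1 (75.6 TPM) and SGK1 (63.9 TPM). PRKAG2 was then above PRKAA2 in every library. It had 20.2 and 19.1 TPM in RB1 KO cells, against 9.12 and 7.44 TPM for PRKAA2. In WT cells PRKAG2 had 19.2 and 19.3 TPM, against 5.19 and 6.26 TPM for PRKAA2. The order of PRKAA2 and PRKAG2 given above thus holds only for merged exons.

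**Figure D2:**
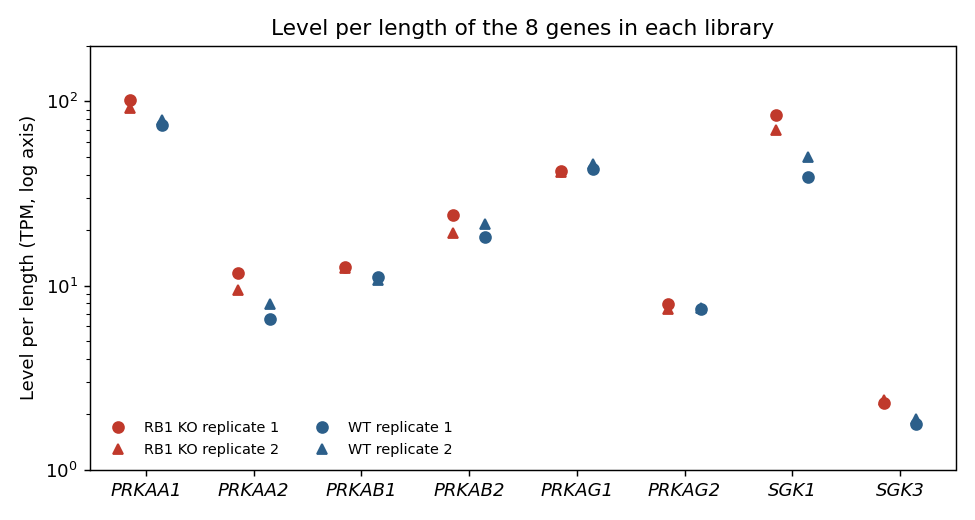
Level per length of the 8 genes in each library in TPM (log axis), with RB1 KO libraries in red left of WT libraries in blue, circles for replicate 1 and triangles for replicate 2. PRKAA1 and SGK1 are the highest, and SGK1 is above PRKAG1 in both RB1 KO libraries (84.4 and 70.0 TPM), while the SGK1 values of the WT libraries (39.0 and 50.2 TPM) lie on both sides of those of PRKAG1.

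Within each class, the TPM values say which gene supplied most of the transcript. PRKAA1 made up 90.2 ± 0.656% of alpha transcript in RB1 KO cells and 91.4 ± 0.741% in WT cells, and PRKAA2 the remaining 9.78 ± 0.656% in RB1 KO cells and 8.62 ± 0.741% in WT cells (SD, n = 2 each). The share of PRKAA2 was 10.2% and 9.32% in the RB1 KO libraries, against 8.10% and 9.14% in the WT libraries. These ranges did not overlap, but the nearest libraries, at 9.32% in RB1 KO cells and 9.14% in WT cells, lay closer to each other than the libraries of either genotype. PRKAB2 took 63.2 ± 3.31% of beta transcript in RB1 KO cells and 64.4 ± 3.32% in WT cells, with overlapping ranges. PRKAG2 took 15.7 ± 0.403% of gamma transcript in RB1 KO cells and 14.4 ± 0.493% in WT cells, and its share was higher in both RB1 KO libraries than in either WT library. SGK1 took 97.0 ± 0.449% of the SGK1 and SGK3 transcript in RB1 KO cells and 96.0 ± 0.483% in WT cells.

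The summed alpha level was 114 and 102 TPM in RB1 KO cells, against 81.2 and 87.1 TPM in WT cells. The summed beta level was 36.6 and 31.6 TPM in RB1 KO cells, against 29.4 and 32.4 TPM in WT cells. The summed gamma level was 49.6 and 48.6 TPM in RB1 KO cells, against 50.4 and 53.3 TPM in WT cells. So only the alpha sum was higher in both RB1 KO libraries than in either WT library, the beta sums overlapped, and the gamma sum was lower in both. The alpha sum holds the picked genes PRKAA1 and PRKAA2, so its difference follows from that choice.

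**Figure D3:**
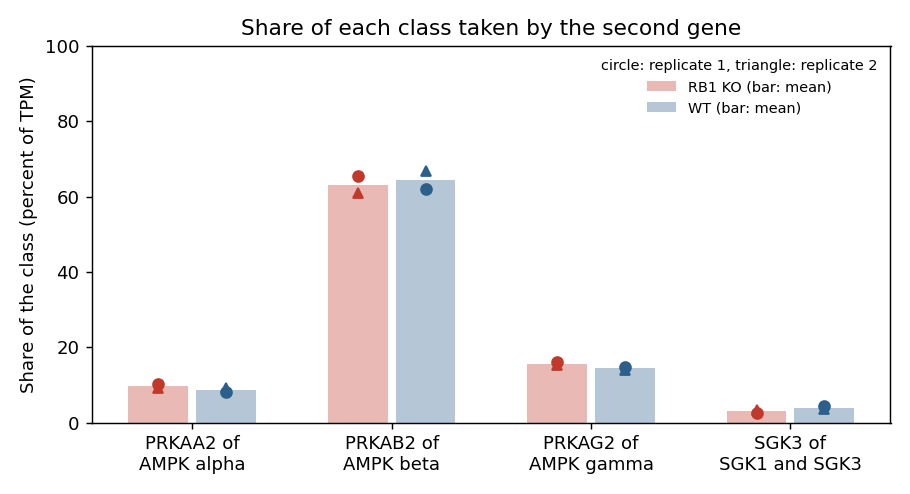
Share of the transcript of each class, in percent of TPM, taken by PRKAA2, PRKAB2, PRKAG2 and SGK3, with RB1 KO in red left of WT in blue, bars at the mean of 2 libraries and points for single libraries (circle replicate 1, triangle replicate 2). PRKAB2 holds at least 60.8% of beta transcript in every library, while PRKAA2, PRKAG2 and SGK3 are the minor genes of their classes.

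To place the members in their pathways, 7 lists of related genes were counted in the same fit. For the counts at an unadjusted p under 0.05 given below, no share over all genes is at hand, so nothing is read from them. Of the 93 genes tested in these lists, 2 were called higher (SIK1 and KLF9), 1 was called lower (NR3C2) and 90 were not called, or 3.23% called, against 2.90% of all genes. Their median log2 fold change was 0.07, against -0.01 over all genes, and 64 values were positive and 29 negative. The median of the lists was -0.00072 with library totals alone and -0.41 with spike-in scaling, which lowers the median of all genes to -0.49. Leaving out RB1 KO replicate 1 gave 5 calls higher and 1 lower, leaving out RB1 KO replicate 2 gave 6 and 3, and leaving out WT replicate 2 gave 4 and 2.

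Of the genes that act on AMPK from above, none of 11 was called in either direction by edgeR, DESeq2 or limma-voom, and before adjustment 1 was higher and 1 lower at p under 0.05 in edgeR. Their median log2 fold change was 0.10. The values of the list ran from -1.09 to 0.21. CAB39 and MAP3K7 are named as the 2 most abundant and do not stand for the others. CAB39 (MO25, the scaffold of the LKB1 complex) had 92.2 and 92.5 CPM in RB1 KO cells, against 88.5 and 84.1 CPM in WT cells (adjusted p = 0.546 in edgeR). MAP3K7 (TAK1, a kinase reported to act on AMPK) had 73.3 and 73.0 CPM in RB1 KO cells, against 68.0 and 70.7 CPM in WT cells (adjusted p = 0.6545 in edgeR). With spike-in scaling the log2 fold changes were -0.38 for CAB39 and -0.41 for MAP3K7, where the median of all genes was -0.49.

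Among the 12 AMPK-related kinases tested, SIK1 was called higher and none was called lower, with 3 higher and 1 lower in edgeR where p before adjustment was under 0.05, and no call lower by DESeq2 or limma-voom. The list had a median of 0.05, which was -0.02 with library totals alone. SIK1 (salt-inducible kinase 1, activated by LKB1 and acting on the CRTC coactivators, chr21:44834363-44847011) had 63.6 and 62.8 CPM in RB1 KO cells, against 29.7 and 41.1 CPM in WT cells. Both RB1 KO libraries were above both WT libraries, and the spread was on the WT side. SIK1 rose by a log2 fold change of 0.84 ± 0.14 (SE; 95% interval from 0.52 to 1.16; adjusted p = 0.0353 in edgeR). With spike-in scaling it was 0.32 and not called. Its relative SIK2 had 168 and 151 CPM in RB1 KO cells, against 121 and 147 CPM in WT cells (log2 fold change 0.25 ± 0.10 SE, adjusted p = 0.310 in edgeR, -0.25 with spike-in scaling). MARK3, a kinase of microtubule-associated proteins, had 93.1 and 87.8 CPM in RB1 KO cells, against 90.3 and 95.4 CPM in WT cells (adjusted p = 0.852 in edgeR).

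Of the AMPK substrates, 22 of 24 were found in the table by ID and tested. ACACA and TXNIP were left unmatched, since their IDs in the annotation used here differ from those in the table, so their levels were not read. None of the 22 tested was called in either direction by edgeR, DESeq2 or limma-voom. At an unadjusted p under 0.05, 2 were higher and 1 was lower in edgeR, and the median log2 fold change was 0.06. FOXO3, a transcription factor that AMPK and SGK1 both phosphorylate, had 122 and 111 CPM in RB1 KO cells, against 115 and 107 CPM in WT cells (adjusted p = 0.731 in edgeR). TSC2, the brake on mTORC1, had 97.9 and 103 CPM in RB1 KO cells, against 95.1 and 102 CPM in WT cells (adjusted p = 0.901 in edgeR). The ranges overlapped for both genes.

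The upstream side of the SGK kinases, listed together with AKT, had 15 of 16 genes tested and none called in either direction by edgeR, DESeq2 or limma-voom. Before adjustment 2 were higher and 1 was lower at p under 0.05 in edgeR, and the median log2 fold change was 0.06. AKT1, a kinase related to SGK1, had 185 and 199.6 CPM in RB1 KO cells, against 208 and 186 CPM in WT cells (adjusted p = 0.891 in edgeR). Of the SGK substrates, 13 of 17 were tested and none was called in either direction by the same 3 tools, with 2 higher and 0 lower before adjustment (p under 0.05 in edgeR) and a median of 0.11. WNK1, a kinase that controls ion cotransporters, had 289 and 286 CPM in RB1 KO cells, against 273 and 289 CPM in WT cells (adjusted p = 0.861 in edgeR). GSK3B, the kinase named for glycogen synthase, had 151 and 139.97 CPM in RB1 KO cells, against 126 and 135 CPM in WT cells (log2 fold change 0.16 ± 0.07 SE, adjusted p = 0.366 in edgeR).

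Since SGK1 is known as a target of glucocorticoids and of osmotic stress, other genes of these responses were counted. In the glucocorticoid list 15 of 16 genes were tested, KLF9 was called higher, NR3C2 was called lower and 13 were not called. That is 13.3% called, against 2.90% of all genes, and with so short a list nothing is read from that share. Before adjustment 2 were higher and 4 lower at p under 0.05 in edgeR, and the median log2 fold change was -0.04. KLF9 (a transcription factor induced by glucocorticoids, chr9:72999520-73029573) had 79.6 and 75.6 CPM in RB1 KO cells, against 51.5 and 60.2 CPM in WT cells. It rose by a log2 fold change of 0.47 ± 0.09 (SE; 95% interval from 0.27 to 0.68; adjusted p = 0.0543 in edgeR), but without WT replicate 1 the value was 0.38 with an adjusted p of 0.129 in edgeR, and with spike-in scaling it was -0.02. NR3C2 (the mineralocorticoid receptor, which also binds cortisol, chr4:148999913-149365850) had 53 and 69 counts in RB1 KO cells, against 159 and 150 counts in WT cells, or 1.61 and 2.07 CPM in RB1 KO cells, against 4.78 and 4.71 CPM in WT cells. Both RB1 KO libraries were below both WT libraries. NR3C2 fell by 1.36 ± 0.20 (SE) on the log2 scale (adjusted p = 0.0264 in edgeR), and it was called lower with every library left out in turn and with spike-in scaling.

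The osmotic list had 6 of 8 genes tested and none called in either direction by edgeR, DESeq2 or limma-voom. None had an unadjusted p under 0.05 in edgeR, and the median log2 fold change of the list was 0.13. The genes not tested were SLC5A3, at 0 counts in all 4 libraries, and SLC6A12, with at most 1 count in a library. SLC38A2, a neutral amino acid transporter, had 1672 and 1554 CPM in RB1 KO cells, against 1531 and 1616 CPM in WT cells (adjusted p = 0.900 in edgeR). SLC6A6, the taurine transporter, had 174 and 135 CPM in RB1 KO cells, against 124 and 152 CPM in WT cells (adjusted p = 0.620 in edgeR). The ranges overlapped for both.

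**Figure D4:**
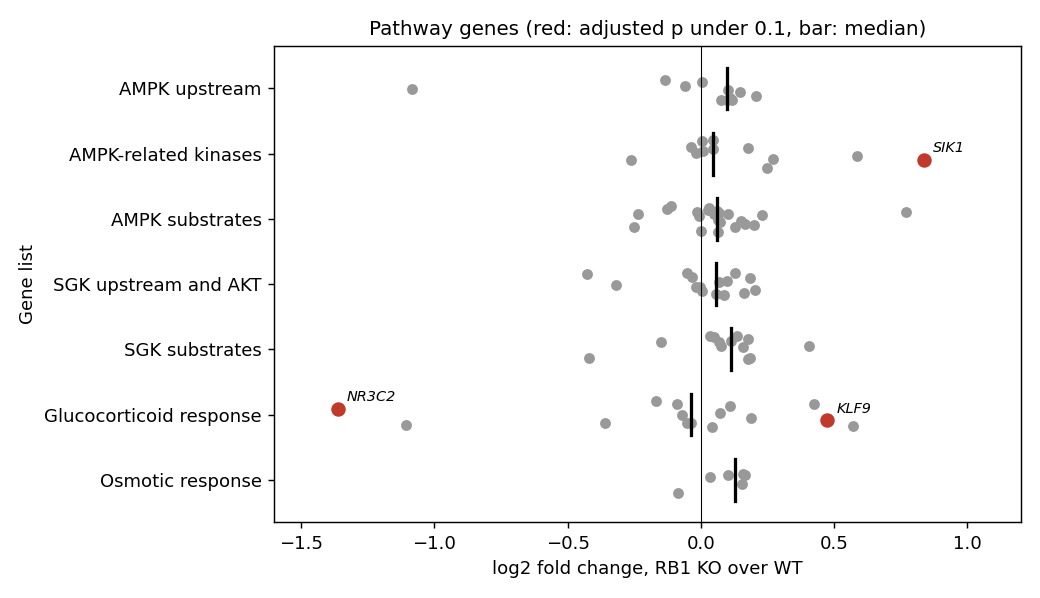
log2 fold change of RB1 KO over WT (horizontal axis) for each tested gene of the 7 lists (rows), with genes called at an adjusted p under 0.1 in red and named, all others in grey, and a bar at the median of each list. SIK1 and KLF9 lie to the right at 0.84 and 0.47, NR3C2 lies to the left at -1.36, and the medians stand between -0.04 and 0.13.

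Genes with the pattern most like that of each picked member were found by the root mean square difference of log2 CPM, centred on each gene, over the 4 libraries and among 9001 protein-coding genes. For SGK1 these were IGDCC4 (0.0126), PGM2L1 (0.0389) and PCSK5 (0.0406). IGDCC4, a membrane protein with immunoglobulin and fibronectin domains, had 17.7 and 15.7 CPM in RB1 KO cells, against 8.56 and 10.6 CPM in WT cells. For PRKAA1 they were LEPROTL1 (0.00626), COL1A1 (0.00726) and EMC7 (0.00795). COL1A1, a chain of type I collagen, had 15970.5 and 15152 CPM in RB1 KO cells, against 12639 and 12581 CPM in WT cells. For PRKAA2 they were PERP (0.0202), VSTM4 (0.0257) and FHL1 (0.0266). PERP, a membrane protein of desmosomes, had 205 and 180.4 CPM in RB1 KO cells, against 129.8 and 144 CPM in WT cells. With 4 libraries many genes share an order, and the differences are a description.

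The marker lists of other cell types and states were read beside the members. The summed level of the 10 fibroblast markers was 47117 and 42071 CPM in RB1 KO cells, against 34376 and 36281 CPM in WT cells, with a median log2 fold change of 0.29 and 1 of 10 (LUM) called. The summed level of the 10 proliferation markers was 792 and 887 CPM in RB1 KO cells, against 1121 and 985 CPM in WT cells, with a median of -0.32 and 3 of 10 (MKI67, CCNB2 and CCNA2) called lower. The endothelial list summed to 187 and 162 CPM in RB1 KO cells, against 124 and 126 CPM in WT cells, of which TEK, a receptor kinase, held 180.4 and 155 CPM in RB1 KO cells and 120.1 and 123 CPM in WT cells. In that list the median was 0.47 and 2 of the 5 genes tested (TEK and KDR) were called higher. KDR, a receptor of VEGF, had 3.26 and 2.04 CPM in RB1 KO cells, against 0.721 and 0.754 CPM in WT cells, and the endothelial cadherin CDH5 was at 0 in all 4 libraries. The smooth muscle list summed to 743 and 916 CPM in RB1 KO cells, against 773 and 623 CPM in WT cells, with a median of 0.16, 2 of 7 (MYH11 and DES) called lower and none called higher. Over all genes 1.99% were called higher and 0.907% lower. The marker lists are short, and nothing is read from their counts of calls. The part of these cell types and states in the levels of SGK1, PRKAA1 and PRKAA2 was not tested.

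Each value above is relative to the other genes of its library. Added ERCC spike-in RNA made up 0.207% and 0.211% of gene counts in RB1 KO libraries, against 0.187% and 0.135% in WT libraries. When libraries were scaled to it, the median log2 fold change of all genes was -0.49, and SGK1 was at 0.27, PRKAA2 at 0.03 and PRKAA1 at -0.16. Relative to that median these were 0.76, 0.52 and 0.33, close to 0.79, 0.53 and 0.33 relative to the median with TMM factors. On the spike-in scale PRKAB1 was at -0.30, PRKAB2 at -0.39, PRKAG1 at -0.60, PRKAG2 at -0.45 and SGK3 at -0.13, and no member was called.

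**Figure D5:**
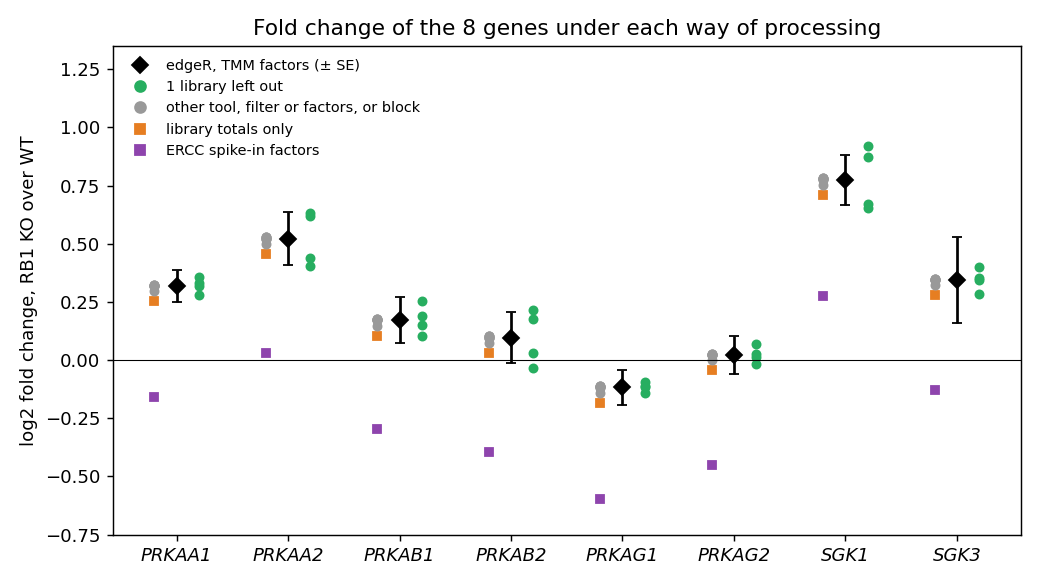
log2 fold change of RB1 KO over WT (vertical axis) for each of the 8 genes, with the edgeR value and its SE as a black diamond, values with 1 library left out in green, other tools, filters, factors or the replicate block in grey, library totals alone in orange and spike-in factors in purple. SGK1 lies between 0.65 and 0.92 with 1 library left out, and the spike-in value lies below the black diamond for each of the 8 genes.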

How the data were processed

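RNA of 2 RB1 KO and 2 WT samples of IMR-90 cells was analysed, grouped by the genotype in the labels, since the treatment text is the same for all 4. Per the study's methods, the authors depleted ribosomal RNA, prepared directional libraries and mapped paired reads on GRCh37 by STAR. The submitters' processing notes name its version as 2.7.2b. Reads with 1 mapping place were counted over the genes of GENCODE v19, and the values as deposited are these counts, with no normalization. Which strand was counted is not given in the sources used here. The uniqueness rule and the overlap rule of STAR can lower the counts of genes with copies or overlapping genes.

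The table holds 57820 gene IDs, 92 ERCC and 7 SIRV spike-in lines and 4 summary lines, of which only the gene lines entered library sizes and fits. The unmapped share was 8.03% to 9.03%, that of reads outside genes 12.96% to 15.56% and that of ambiguous reads 2.06% to 2.17% of the reads in the table. Symbols, positions and lengths came from GENCODE v44 mapped to GRCh37, which paired 55538 IDs and left 2282 unpaired.

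Differences were tested with edgeR 4.0.16 in R 4.3.3 (quasi-likelihood test, TMM factors). Its filterByExpr at a count of 10 and a total of 15 left 16426 genes, over which p-values were adjusted by Benjamini-Hochberg. A gene was called where the adjusted p was under 0.1. The script was tested on simulated data. SE is the size of the log2 fold change over the root of F. CPM values use the TMM factors. TPM values were computed from counts and merged exon length, without TMM factors. Alternatives used DESeq2 1.42.0, limma 3.58.1 (voom), other scaling factors and filters, a replicate block, a stricter threshold and 1 library left out. Tables and figures were made with Python 3.11.15, pandas 2.3.3 and matplotlib 3.10.9.

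The members and the gene lists were chosen with earlier results of these data known. Named genes are the members, RB1, the other family genes, in each list the called genes (at most 4 with the smallest p), with the 2 of highest CPM added where fewer than 2 were called, and the 3 genes of at least 10 CPM nearest in pattern to each picked member (pseudocount 0.5 CPM). A gene that the rule names is not reported here. Marker genes named with their lists were named after their values were seen.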

Additional observations from a re-analysis of the deposited data

How the results depend on the processing

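With 2 libraries per genotype, a call of a moderate change rests on single libraries, and all values are relative to the scaling chosen. Over all genes, 327 were called higher and 149 lower. With spike-in (ERCC) factors these counts were 11 and 168, with library totals alone 221 and 326, with no filter 230 and 90, and at an adjusted p under 0.05 they were 157 and 65. With 1 library left out they ranged from 278 to 708 and from 110 to 636, where the lone library of a genotype is assumed to vary like the other genotype. Of all calls 68.7% were higher, against 40.4% with library totals, 6.15% with spike-in factors, 52.7% without RB1 KO replicate 2 and 56.8% without WT replicate 2. In the pathway lists (2 higher, 1 lower), spike-in factors gave 0 and 2 calls, library totals 2 and 2, and the stricter threshold 1 and 1. The leave-one-out counts there ranged from 2 to 6 and from 1 to 3.

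The labels do not say that a replicate number marks shared material. The deviations of same-numbered libraries from the group means correlated at -0.37 over 13440 genes, and the cause of this was not tested. With the replicate number as a block, 152 genes were called higher and 74 lower, with 1 call higher and 1 lower in the pathway lists. PRKAA1 (0.32) and PRKAA2 (0.52) were no longer called with that block. A crossed pairing, chosen after seeing the data, gave 1612 calls higher and 1362 lower (54.2% higher), with 17 and 7 in the pathway lists. A rise in calls follows from that choice, so nothing is read from it.

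SGK1 was not called with spike-in factors (0.27). PRKAA1 and PRKAA2 were not called with library totals (0.25 for PRKAA1, 0.46 for PRKAA2), with no filter (0.32 for PRKAA1, 0.53 for PRKAA2) or with spike-in factors (-0.16 for PRKAA1, 0.030 for PRKAA2). With 1 library left out, PRKAA1 ranged from 0.28 to 0.36, PRKAA2 from 0.40 to 0.63, PRKAB2 from -0.033 to 0.22 and PRKAG2 from -0.015 to 0.070. PRKAG2 was also below 0 with library totals (-0.045), upper-quartile factors (-0.0016) and spike-in factors (-0.45). The other 5 members were called in none of these fits (the crossed pairing is given by its counts only). The cause of these changes was not tested, beside the shift of -0.48 that spike-in factors gave to the median of all genes.

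With spike-in factors the log2 fold change also turned below 0 for PRKAB1 (-0.30), PRKAB2 (-0.39), SGK3 (-0.13), RB1 (-0.36), CAB39 (-0.38), MAP3K7 (-0.41), SIK2 (-0.25), FOXO3 (-0.40), TSC2 (-0.46), WNK1 (-0.45), GSK3B (-0.33), KLF9 (-0.023), SLC38A2 (-0.45), SLC6A6 (-0.34), LEPROTL1 (-0.17), COL1A1 (-0.18), EMC7 (-0.16), VSTM4 (-0.025) and FHL1 (-0.016). With library totals it turned for TSC2 (-0.039), WNK1 (-0.031) and SLC38A2 (-0.031). With 1 library left out the range crossed 0 for MARK3 (-0.081 to 0.0043), FOXO3 (-0.00017 to 0.14), TSC2 (-0.014 to 0.082), AKT1 (-0.11 to 0.060), SLC38A2 (-0.018 to 0.088) and SLC6A6 (-0.031 to 0.34), none of which was called with all 4 libraries. SLC6A6 (0.34) and SIK2 (0.33) were called higher without RB1 KO replicate 2, and SIK2 (0.40) also without WT replicate 2. KLF9 was not called with the block (0.48).

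With the length of the longest transcript in place of merged exons, PRKAA2 made up 7.998% of alpha in RB1 KO cells and 7.03% in WT cells, PRKAB2 53.9% of beta in RB1 KO cells and 55.2% in WT cells, PRKAG2 19.7% of gamma in RB1 KO cells and 18.2% in WT cells, and SGK1 97.8% of SGK1 and SGK3 in RB1 KO cells and 97.0% in WT cells. SGK1 then had 110.1 TPM in RB1 KO cells and 63.9 TPM in WT cells and PRKAG1 80.3 TPM in RB1 KO cells and 86.6 TPM in WT cells, so the order of these genes in WT cells depends on the length used.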

Other observations

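Within the glucocorticoid list, the libraries of 1 genotype stood apart for some genes. These were chosen after their values were seen. DUSP1, a phosphatase of MAP kinases, had 183 and 286 CPM in RB1 KO cells, against 177 and 139 CPM in WT cells. NFKBIA, the inhibitor of NF-kappaB, had 30.7 and 64.5 CPM in RB1 KO cells, against 36.5 and 34.4 CPM in WT cells. MT2A, a metallothionein, had 38.5 and 67.6 CPM in RB1 KO cells, against 58.8 and 52.7 CPM in WT cells. For these 3 genes RB1 KO replicate 2 was the higher library of the knockout. For SGK1 it was RB1 KO replicate 1 (214 and 186.5 CPM in RB1 KO cells, against 106 and 128 CPM in WT cells). The other tested genes of the list went either way. TSC22D3, KLF9, CRISPLD2, ANGPTL4 and GLUL were higher in RB1 KO replicate 1, as SGK1 was. FKBP5, PER1, ERRFI1, CEBPD, NR3C1, NR3C2 and HSD11B1 were higher in RB1 KO replicate 2. No contrast with SGK1 is read from these orders. DUSP1, NFKBIA and MT2A were not called by edgeR with Benjamini-Hochberg adjustment over all genes (adjusted p = 0.216 for DUSP1, 0.523 for NFKBIA and 0.919 for MT2A).

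Of the other genes of that list, NR3C1, the glucocorticoid receptor, had 122 and 123 CPM in RB1 KO cells, against 135 and 140.4 CPM in WT cells, and did not pass the test (log2 fold change -0.17 ± 0.07 SE, adjusted p = 0.277 in edgeR). HSD11B1, the enzyme that regenerates cortisol, had 0.609 and 1.14 CPM in RB1 KO cells, against 1.71 and 2.07 CPM in WT cells (log2 fold change -1.11 ± 0.34 SE, adjusted p = 0.177 in edgeR). Both were chosen after their values were seen, and the mineralocorticoid receptor NR3C2 was the only gene of that list called lower. Of the 15 genes tested in the list, 7 had a positive and 8 a negative log2 fold change.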
